A study of Drosophila melanogaster with 9 samples.

Results

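The vacuolar ATPase (V-ATPase) subunit genes of *Drosophila* were taken as the rows of the count table whose gene name begins with Vha. There were 32 such genes among the 13937 rows. By the subunit each encodes, 12 belong to the peripheral V1 sector, 18 to the membrane Vo sector and 2 are accessory subunits. The cells were S2 cells, an established *Drosophila* line with features of blood cells. They were held without serum for 16 h and then given DILP2 at 100 nM, DILP5 at 100 nM or the vehicle alone (mock) for 1 h, with 3 polyA RNA libraries per group, called replicates A, B and C. DILP2 and DILP5 are *Drosophila* insulin-like peptides, ligands of the fly insulin receptor. The labels name no genotype, transgene or clone, and they do not say whether the libraries of a group came from separate cultures, so the p-values measure only the spread between these libraries.

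The V-ATPase is a rotary proton pump that acidifies endosomes, lysosomes and secretory vesicles. ATP is hydrolysed in the V1 head, which turns a central shaft and the proton-carrying ring of Vo against a fixed membrane stator, and V1 and Vo can come apart and reassemble when nutrients change. On the lysosome the pump also takes part in amino acid sensing by TORC1, the growth kinase complex that insulin signalling feeds into. Most fly subunits are encoded by several paralogous genes, some of which are expressed mainly in particular tissues.

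The libraries held from 28365854 to 38557706 counts. Counts were scaled by library size to CPM (counts per 1000000 counts) with edgeR's TMM factors, 8981 genes passed edgeR's filter on low counts, and the estimated variation between replicates was 6.29%. Among the 8 listed blood cell markers, Col4a1 (a basement membrane collagen) lay between 526 and 661 CPM in the 9 libraries. Pxn lay between 29.5 and 45.4 CPM, Hml between 2.36 and 4.57 CPM and eater between 2.08 and 5.55 CPM, whereas He and NimC1 did not exceed 0.283 CPM. Of 6 such markers tested, the transcription factor gene serpent (srp) and its partner u-shaped (ush) fell with each DILP (log2 fold changes of -0.30 and -0.27 with DILP2 and of -0.28 and -0.25 with DILP5), and the part of this in the values below was not tested. Of 5 markers of other lineages, the neuronal gene elav lay between 64.7 and 72.9 CPM and the other 4 stayed at or below 1.27 CPM, and none of the 3 tested was called with either DILP.

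Of the 32 genes, 18 had a mean of at least 1 CPM in vehicle cells and are called expressed here, and 17 of these were at or above 10 CPM. The 14 others averaged at most 0.658 CPM. The expressed genes cover each V1 subunit from A to H, each Vo subunit (a, c, c'', d and e) and both accessory subunits. The 23 genes past the count filter were the 18 expressed genes and 5 of the 14 others, Vha68-3, Vha36-2, Vha36-3, Vha100-4 and VhaAC39-2. The remaining 9 genes (Vha14-2, Vha16-2, Vha16-3, Vha16-4, Vha100-3, Vha100-5, VhaPPA1-2, VhaM9.7-a and VhaM9.7-d) were not tested. Each of these had between 0 and 5 counts in any library. VhaM9.7-d had 0 counts in all 9 libraries, and a count of 0 allows a level of up to 0.00969 CPM (3 counts over the 9 libraries, counting error only).

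Levels of different genes were compared as CPM per kilobase of exonic length, the length being that of the BDGP6 annotation and not of the build used for counting. In the V1 sector, Vha55, the B subunit that binds nucleotide beside the catalytic sites, stood at 135 ± 5.53 CPM per kb in vehicle cells (SD, n = 3 for each vehicle level). Close to it in level were the genes of the peripheral stalks that hold the head in place, Vha13 (subunit G) at 121 ± 6.75 CPM per kb and Vha26 (subunit E) at 107 ± 4.15 CPM per kb. Vha36-1 (subunit D), part of the central shaft, followed at 96.0 ± 1.33 CPM per kb. Vha14-1 (subunit F), the other shaft gene, had 54.8 ± 3.32 CPM per kb, and VhaSFD (subunit H), which regulates the pump, had 52.6 ± 1.75 CPM per kb, a difference within their spread. Vha44 (subunit C), whose protein in other species leaves the pump when V1 and Vo separate, was at 24.7 ± 0.878 CPM per kb.

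Of the named genes of the catalytic subunit A, Vha68-1 reached 9.19 ± 0.373 CPM per kb and Vha68-3 only 0.0776 ± 0.0465 CPM per kb. The row of Vha68-2, the remaining paralogue of subunit A, carries an identifier (FBgn0263598) but no gene name in the table and is therefore outside the 32 genes. It was identified through the annotation and is described beside them, and it had 131 ± 2.53 CPM per kb in vehicle cells. Within subunit A, Vha68-2 made up 93.3 ± 0.416% of the counts per kb with DILP2, 93.5 ± 0.527% with DILP5 and 93.4 ± 0.145% with vehicle (SD, n = 3 each). Vha68-1 and Vha68-2 are closely related in sequence, and how reads with several matches were counted is not given in the sources used here, so their split is uncertain.

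In the Vo sector, Vha16-1, the c subunit of the proton-carrying ring, had the highest level of the 32 genes, 508 ± 8.25 CPM per kb. The other ring gene at a high level was VhaPPA1-1 (subunit c'') at 142 ± 4.27 CPM per kb. VhaAC39-1 (subunit d), which couples the shaft to the ring, had 84.0 ± 2.28 CPM per kb. Subunit a, the membrane stator, had more than 1 gene at or above 10 CPM: Vha100-1 had 77.3 ± 1.72 CPM per kb and Vha100-2 had 63.4 ± 2.72 CPM per kb. The small membrane subunit e was likewise shared between VhaM9.7-b at 46.5 ± 2.66 CPM per kb and VhaM9.7-c at 25.6 ± 3.22 CPM per kb. Vha16-5, a further c gene and the lowest of the expressed genes, had 2.77 ± 0.737 CPM per kb. The accessory subunits VhaM8.9 (the fly counterpart of ATP6AP2) and VhaAC45 (counterpart of ATP6AP1) had 161 ± 2.601 and 126 ± 1.081 CPM per kb. The row of VhaAC45RP, identified through the annotation, has no name beginning with Vha and is also outside the 32 genes. It had 7 counts over the 9 libraries and was not tested.

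**Figure D1:**
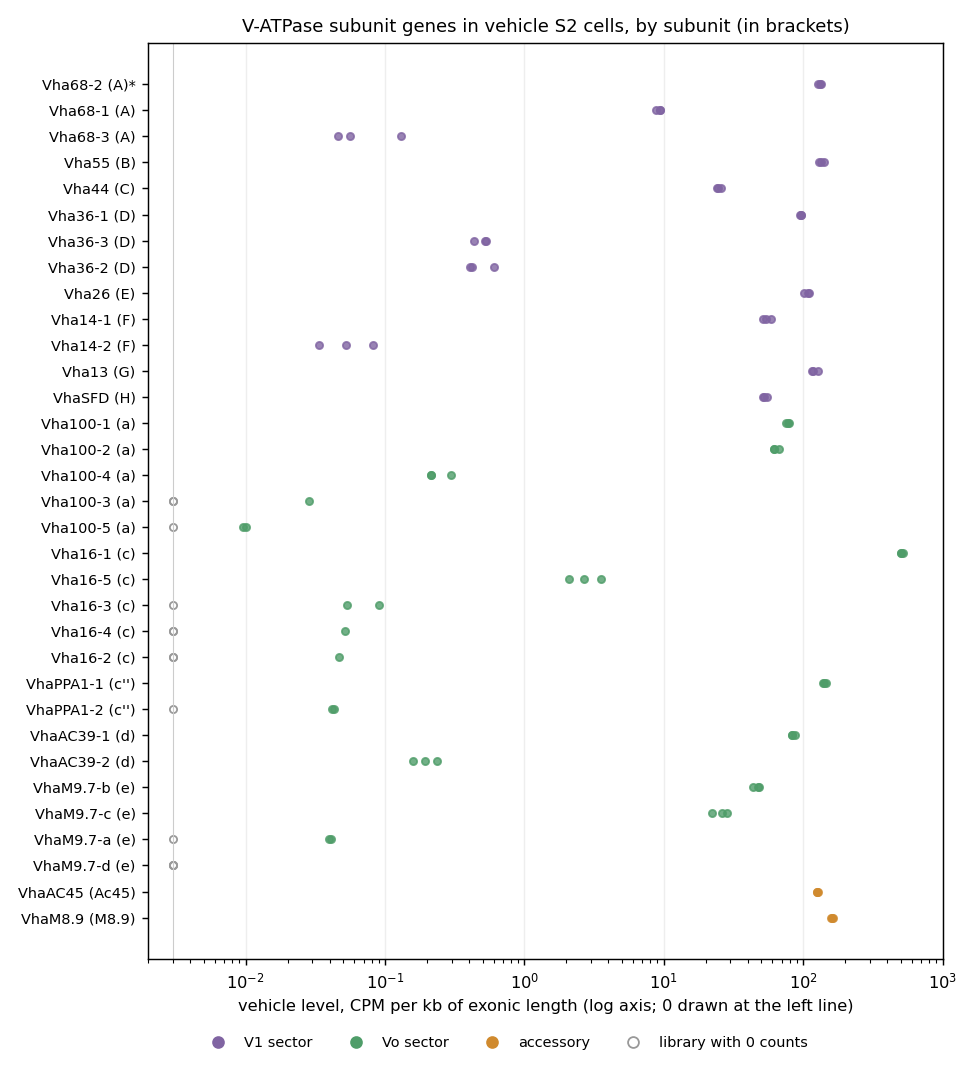
Level of each V-ATPase subunit gene in the 3 vehicle libraries (points, CPM per kb of exonic length, log axis), grouped by subunit and coloured by sector; open points on the left line are libraries with 0 counts, and the asterisk marks Vha68-2, whose row has no gene name in the table. Vha16-1 lies highest at 508 CPM per kb, and subunits D, F, c, c'' and d each have a single gene far above their other paralogues. VhaAC45RP is not drawn.

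For 5 subunits a single gene made up nearly all of the RNA in each of the 3 groups. Vha36-1 made up 99.2 ± 0.0685% of subunit D with DILP2, 98.9 ± 0.181% with DILP5 and 99.0 ± 0.160% with vehicle, all as shares of counts per kb. The DILP5 libraries (98.74, 99.09 and 98.82%) lay below the DILP2 libraries (99.14, 99.27 and 99.25%) in this share, which was not tested. In vehicle cells the shares were 99.9% for Vha14-1 in subunit F, 99.4% for Vha16-1 in subunit c, 99.98% for VhaPPA1-1 in subunit c'' and 99.8% for VhaAC39-1 in subunit d. Subunit a was split, with Vha100-1 at 55.1 ± 1.20% with DILP2, 55.2 ± 1.35% with DILP5 and 54.9 ± 0.660% with vehicle, and Vha100-2 nearly the whole of the rest. In subunit e, VhaM9.7-b made up 65.6 ± 0.524% with DILP2, 64.3 ± 0.828% with DILP5 and 64.6 ± 1.83% with vehicle. The differences between groups in these shares of subunits a and e were smaller than the largest SD of a group.

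**Figure D2:**
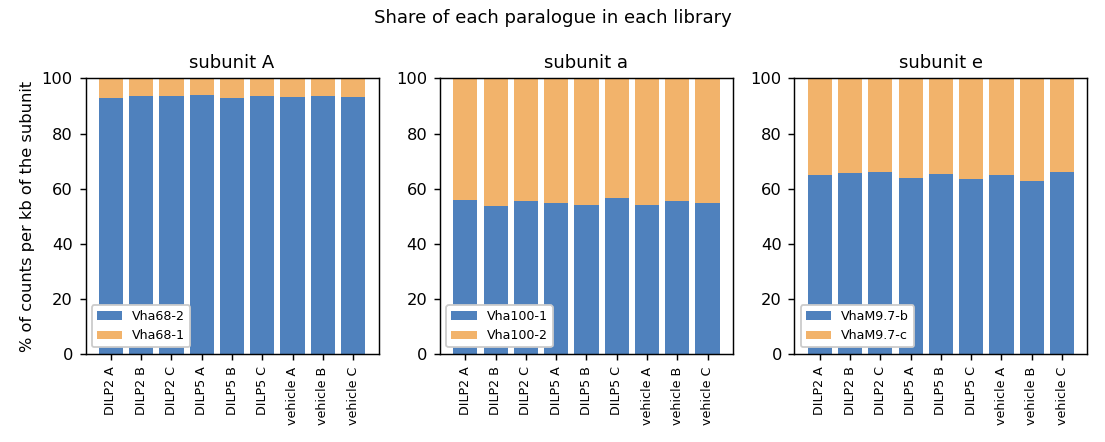
Share of each paralogue in the counts per kb of subunits A, a and e in each of the 9 libraries (bars, percent; paralogues under 0.3% are not drawn). The share of Vha68-2 lies between 92.8 and 93.9%, that of Vha100-1 between 53.7 and 56.6% and that of VhaM9.7-b between 62.6 and 66.2%.

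With DILP2, 1 of the 23 genes tested, Vha36-1, rose relative to vehicle and none fell, where 5.33% of all genes tested rose and 5.59% fell (10.9% in all). Vha36-1, the shaft subunit D, had 122.8, 112.2 and 115.2 CPM in DILP2 replicates A, B and C, against 103.1, 102.8 and 100.5 CPM in vehicle replicates A, B and C. Each DILP2 library lay above each vehicle library. The log2 fold change was 0.19 ± 0.04 (SE), a 1.14-fold higher level, with an adjusted p of 0.0156 (edgeR's quasi-likelihood test, adjusted by Benjamini-Hochberg over all genes tested). Without DILP2 replicate A the log2 fold change was 0.16 with an adjusted p of 0.0680, and without vehicle replicate C it was 0.18 with an adjusted p of 0.0686. Scaled by library size only, it was 0.16 with an adjusted p of 0.0503.

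Vha68-2, outside the 32 genes, also rose with DILP2. It had 398.6, 400.2 and 401.2 CPM in the DILP2 libraries, against 365.3, 354.7 and 367.9 CPM in the vehicle libraries, and the groups did not overlap. Its log2 fold change was 0.14 ± 0.04 (SE) with an adjusted p of 0.0402 by the same test. This call was lost in 7 of the 9 fits that left out a library, where its adjusted p reached 0.122 without vehicle replicate B, and also with library size only (adjusted p = 0.0889) and without the filter on low counts (adjusted p = 0.0713). With DILP5 the gene had 375.0, 393.5 and 402.3 CPM, each above the vehicle libraries, and its log2 fold change of 0.11 ± 0.04 (SE) did not pass (adjusted p = 0.101), whereas with the trend on exonic length removed it was 0.13 (adjusted p = 0.0335). Vha68-1, its close relative, had 29.9, 26.7 and 26.7 CPM with DILP2, against 25.3, 23.4 and 25.1 CPM with vehicle, and its log2 fold change of 0.17 ± 0.08 (SE) did not pass (adjusted p = 0.201).

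With DILP5, 2 of the 23 genes rose and none fell, where 6.28% of all genes tested rose and 6.78% fell (13.1% in all). Vha14-1, the shaft subunit F, had 44.9, 41.0 and 44.4 CPM in DILP5 replicates A, B and C, against 34.0, 38.4 and 35.9 CPM in the vehicle libraries. All of its DILP5 libraries were above all vehicle libraries, and in both groups replicate B lay nearest to the other group. The log2 fold change was 0.27 ± 0.06 (SE), a 1.20-fold higher level, with an adjusted p of 0.0176. The adjusted p was 0.0795 without vehicle replicate A, 0.0627 without vehicle replicate C and 0.0642 without DILP5 replicate A. Vha14-1 is the shortest of the 17 genes at or above 10 CPM (659 exonic bases), and log2 fold changes fell with exonic length across 8868 genes (Spearman's rho = -0.24 for DILP5, genes not being independent replicates). With that trend on length removed, the log2 fold change of Vha14-1 was 0.17 with an adjusted p of 0.112.

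VhaM8.9, the ATP6AP2 counterpart, had 262.4, 256.5 and 259.1 CPM with DILP5, against 240.7, 233.2 and 235.8 CPM with vehicle. The groups did not overlap, and their SDs were 2.94 CPM with DILP5 and 3.82 CPM with vehicle. Its log2 fold change was 0.13 ± 0.03 (SE), a 1.10-fold higher level, with an adjusted p of 0.0288. The call was lost in the 6 fits that left out a vehicle or a DILP5 library (adjusted p from 0.0542 without DILP5 replicate C to 0.0916 without vehicle replicate C). It was also lost with library size only (log2 fold change 0.10, adjusted p = 0.102) and without the filter on low counts (log2 fold change 0.14, adjusted p = 0.0550). With DILP2 the same gene had 253.5, 257.3 and 250.7 CPM, a log2 fold change of 0.10 ± 0.03 (SE) that did not pass (adjusted p = 0.0880).

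**Figure D3:**
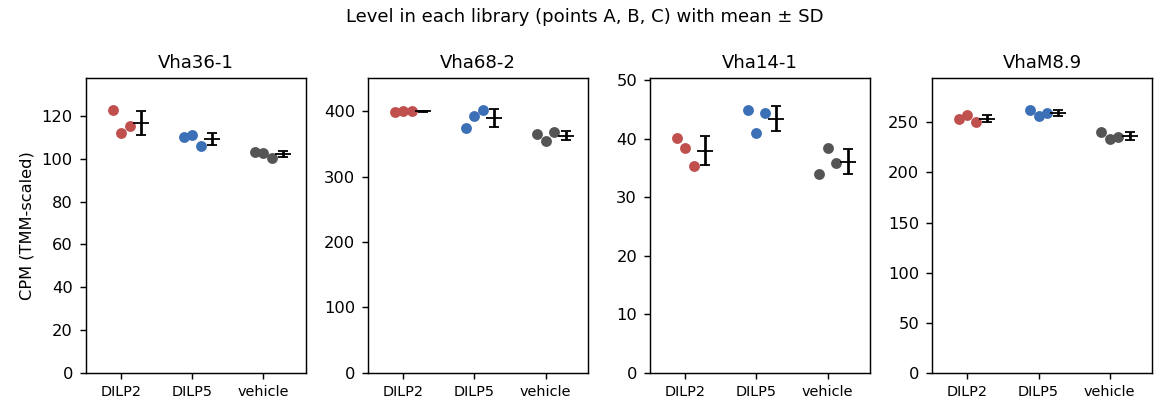
Level of Vha36-1, Vha68-2, Vha14-1 and VhaM8.9 in each library (points for replicates A, B and C from left to right, CPM) with the mean ± SD of each group (n = 3). Vha36-1 averages 117 CPM with DILP2, 109 CPM with DILP5 and 102 CPM with vehicle, and Vha14-1 averages 38.0, 43.4 and 36.1 CPM in the same groups.

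The changes were small for each gene at or above 10 CPM. Of these 17 genes, 15 had a positive log2 fold change with DILP2 and 16 with DILP5, where the shares among all genes at or above 10 CPM were 53.8% and 54.9%. With DILP2 their values ran from -0.03 to 0.19, and with DILP5 from -0.0038 to 0.27. The median over the 23 genes tested was 0.07 with DILP2 and 0.10 with DILP5, beside -0.0022 and -0.0019 over all genes tested. With library size only, the medians of the 23 genes were 0.04 and 0.06, beside -0.04 and -0.04 over all genes, and 14 and 15 of the 17 genes were positive. The DILP2 and DILP5 comparisons share the 3 vehicle libraries, so their values are not independent of each other.

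The 3 DILP2 libraries lay wholly above the vehicle libraries for 6 of the 23 genes (14.3% of all genes tested). The 3 DILP5 libraries did so for 6 of the 23 genes (16.2% of all genes tested). With DILP2 these were Vha68-1, Vha36-1, VhaSFD, VhaPPA1-1, Vha100-1 and VhaM8.9. With DILP5 they were Vha55, Vha36-1, Vha14-1, VhaPPA1-1, VhaAC39-1 and VhaM8.9. None of the 23 genes lay wholly below with either DILP, where 16.1% of all genes tested did so with DILP2 and 17.4% with DILP5. An unadjusted p under 0.05 was found for 3 of the 23 genes with DILP2 (25.2% of all genes tested) and for 7 with DILP5 (27.5% of all genes tested).

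**Figure D4:**
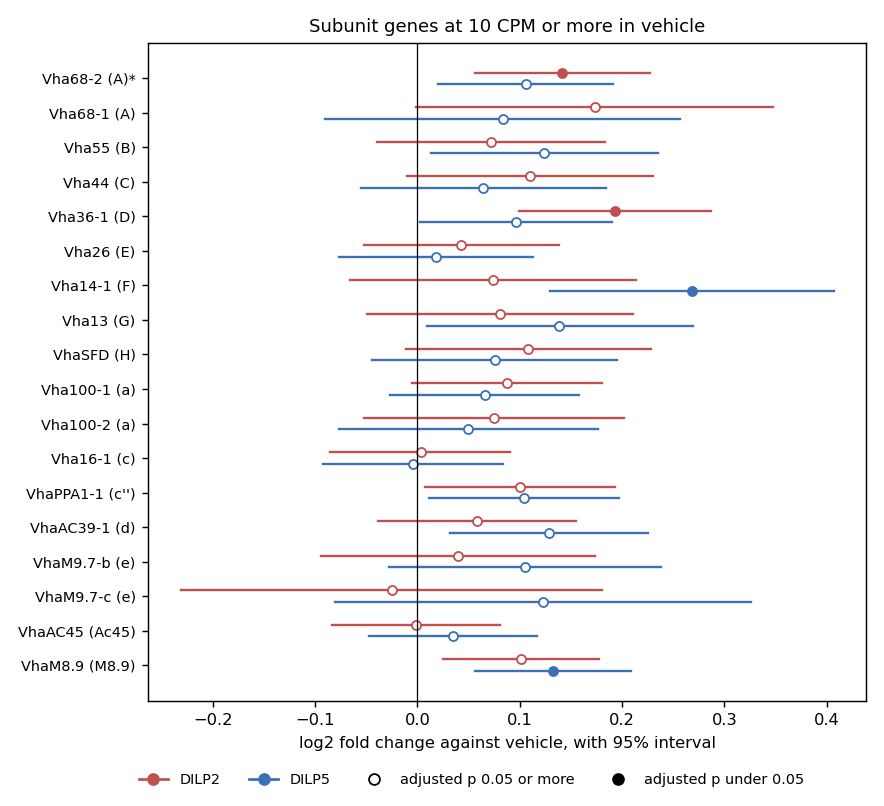
Log2 fold change against vehicle with its 95% interval for the 17 genes at or above 10 CPM and Vha68-2 (asterisk), by subunit; DILP2 is drawn above DILP5 for each gene, and filled points have an adjusted p under 0.05. Nearly all points lie between 0 and 0.2, Vha16-1 and VhaAC45 lie near 0, and the widest intervals are those of VhaM9.7-c.

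Several genes showed the pattern of a slightly higher level without passing the test. VhaAC39-1, the coupling subunit d, had 170.4, 165.1 and 158.2 CPM with DILP5, against 155.3, 148.0 and 148.4 CPM with vehicle, and a log2 fold change of 0.13 ± 0.04 (SE, adjusted p = 0.0799). With DILP2 it had 159.4, 160.7 and 150.3 CPM, which overlapped with vehicle. VhaPPA1-1, the ring subunit c'', was above vehicle in each DILP library, with 201.9, 213.6 and 201.7 CPM with DILP2 and 205.7, 200.1 and 213.0 CPM with DILP5, against 197.8, 186.3 and 191.7 CPM with vehicle. Its log2 fold changes were 0.10 with each DILP (adjusted p = 0.166 with DILP2 and 0.137 with DILP5). Vha55, subunit B, had 372.8, 396.1 and 416.1 CPM with DILP2 and 401.8, 400.1 and 426.2 CPM with DILP5, against 371.1, 363.1 and 392.9 CPM with vehicle. Replicate C was the highest of its group for Vha55 in all 3 groups, and the log2 fold change with DILP5 was 0.12 (adjusted p = 0.136).

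The other genes of the head and stalks did not pass the test with either DILP. VhaSFD, the regulatory subunit H, had 158.4, 156.9 and 166.1 CPM with DILP2 and 144.6, 158.0 and 167.9 CPM with DILP5, against 144.7, 154.4 and 147.5 CPM with vehicle. Vha44, subunit C, had 110.0, 98.0 and 113.8 CPM with DILP2 and 106.7, 103.2 and 102.1 CPM with DILP5, against 97.0, 103.5 and 97.8 CPM with vehicle. The libraries of VhaSFD with DILP2 were above those with vehicle (log2 fold change 0.11, adjusted p = 0.243), and for Vha44 the groups overlapped with each DILP. Vha13, the stalk subunit G, had a log2 fold change of 0.08 with DILP2 and 0.14 with DILP5 (adjusted p = 0.439 and 0.155), where DILP5 replicate A at 135.8 CPM was the highest library. Vha26, the stalk subunit E, had 332.1, 321.6 and 310.2 CPM with DILP2 and 323.7, 314.1 and 309.8 CPM with DILP5, against 321.7, 315.7 and 298.3 CPM with vehicle, and replicate C was the lowest in each group. The log2 fold changes of Vha26 were 0.04 with DILP2 and 0.02 with DILP5, no larger than their SE of 0.04.

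In the membrane sector, the dominant ring gene did not move measurably. Vha16-1 had 1584, 1565 and 1553 CPM with DILP2 and 1616, 1525 and 1538 CPM with DILP5, against 1591, 1541 and 1559 CPM with vehicle. Its log2 fold change was 0.0031 with DILP2 (95% interval -0.09 to 0.09) and -0.0038 with DILP5 (95% interval -0.09 to 0.08), and the 3 groups overlapped. For the stator genes, the log2 fold changes of Vha100-1 were 0.09 (DILP2) and 0.07 (DILP5), those of Vha100-2 were 0.07 (DILP2) and 0.05 (DILP5), and the adjusted p-values lay between 0.222 and 0.626. The genes of subunit e, VhaM9.7-b and VhaM9.7-c, had 0.04 and -0.03 with DILP2 and 0.11 and 0.12 with DILP5, with no adjusted p under 0.2997. VhaAC45, the ATP6AP1 counterpart, had 246.2, 256.1 and 257.6 CPM with DILP2 and 262.8, 252.5 and 263.9 CPM with DILP5, against 251.5, 253.4 and 255.8 CPM with vehicle. Its log2 fold changes were -0.0013 with DILP2 (95% interval -0.08 to 0.08) and 0.03 with DILP5 (95% interval -0.05 to 0.12).

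The rarely detected paralogues were too sparsely counted for a difference of this size to be seen. Vha16-5, the second c gene, had 2.08, 2.20 and 2.08 CPM with DILP2 and 2.23, 1.95 and 1.70 CPM with DILP5, against 1.51, 2.57 and 1.95 CPM with vehicle, and the vehicle libraries spanned the others. The 5 genes under 1 CPM that were tested had between 4 and 44 counts in a library. Among them Vha36-3, a subunit D paralogue, had 36, 23 and 44 counts with DILP5, against 20, 20 and 23 counts with vehicle, and a log2 fold change of 0.53 ± 0.31 (SE, adjusted p = 0.304). VhaAC39-2, a subunit d paralogue, had 22, 11 and 6 counts with DILP5, against 7, 7 and 10 counts with vehicle. Its DILP5 replicate A was high and replicate C was below each vehicle library, and the log2 fold change was 0.52 ± 0.46 (SE, adjusted p = 0.513). With DILP2 the values were -0.02 ± 0.33 for Vha36-3 and 0.20 ± 0.49 for VhaAC39-2. Vha36-2 had -0.33 ± 0.31 with DILP2 and -0.11 ± 0.29 with DILP5, and Vha100-4 had -0.15 ± 0.34 and -0.03 ± 0.33. Vha68-3 had 0.17 ± 0.51 with DILP2 and 0.32 ± 0.49 with DILP5. None of these genes was called with either DILP.

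Summed over the sector, the V1 genes gave 1284, 1270 and 1311 CPM with DILP2 and 1293, 1278 and 1305 CPM with DILP5, against 1209, 1224 and 1209 CPM with vehicle. This V1 sum leaves out Vha68-2, which lies outside the 32 genes and averaged 363 CPM with vehicle. Each DILP library was above each vehicle library in this sum. The Vo genes gave 2525, 2513 and 2455 CPM with DILP2 and 2552, 2479 and 2457 CPM with DILP5, against 2502, 2415 and 2422 CPM with vehicle, and here the groups overlapped. Vha16-1 made up most of the Vo sum, and without it the Vo genes averaged 930 ± 24.8 CPM with DILP2, 936 ± 18.0 CPM with DILP5 and 882 ± 25.4 CPM with vehicle (SD, n = 3 each). The accessory genes averaged 507 ± 6.87 CPM with DILP2, 519 ± 8.79 CPM with DILP5 and 490 ± 3.07 CPM with vehicle. All 32 genes together gave 4309, 4296 and 4274 CPM with DILP2 and 4370, 4265 and 4285 CPM with DILP5, against 4203, 4125 and 4123 CPM with vehicle, and each DILP library was above each vehicle library. Before TMM scaling they took up 0.425 ± 0.00592% of the counts with DILP2, 0.427 ± 0.00805% with DILP5 and 0.422 ± 0.00762% with vehicle, and these shares overlapped between the groups. The total of the 32 genes and Vha68-2 averaged 4693 ± 16.4 CPM with DILP2 and 4697 ± 43.9 CPM with DILP5. With vehicle this total averaged 4513 ± 48.5 CPM. Sums over genes carry no test here.

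DILP5 and DILP2 were then set against each other, which asks whether the ligands differ in their effect on these genes. None of the 23 genes was called, nor was any of the 8981 genes tested (0% called by edgeR's quasi-likelihood test and 0 by DESeq2), while 208 genes, 2.32%, had an unadjusted p under 0.05. Of the subunit genes, 2 had an unadjusted p under 0.05, and they are the shaft genes F and D. Vha14-1 had 44.9, 41.0 and 44.4 CPM with DILP5, against 40.1, 38.5 and 35.3 CPM with DILP2, a log2 fold change of 0.19 ± 0.06 (SE, edgeR's quasi-likelihood test, unadjusted p = 0.00998, adjusted p = 0.9998). Vha36-1 went the other way, with 110.1, 111.3 and 106.2 CPM with DILP5, against 122.8, 112.2 and 115.2 CPM with DILP2, and its log2 fold change was -0.10 ± 0.04 (SE, unadjusted p = 0.0445, adjusted p = 0.9998). The 3 DILP5 libraries lay wholly above the DILP2 libraries for Vha14-1 and VhaM9.7-c and wholly below for Vha36-1, where 3.05% of all genes tested did so in each direction. A call against vehicle with 1 DILP and not with the other is thus not shown to be a difference between the DILPs for Vha36-1, Vha14-1 or VhaM8.9, and the 95% interval of the DILP5 against DILP2 log2 fold change was -0.19 to -0.003 for Vha36-1, 0.06 to 0.33 for Vha14-1 and -0.05 to 0.11 for VhaM8.9.

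Genes that work with the pump were read from listed sets. The assembly and regulation genes were Rbcn-3A and Rbcn-3B, whose relatives assemble V1 with Vo, and Mitf, a transcription factor that drives V-ATPase genes in flies. None of these 3 genes passed the test with either DILP, and the log2 fold change of Mitf was 0.09 ± 0.13 with DILP2 and -0.09 ± 0.13 with DILP5 (SE). Among the 24 lysosomal protein genes, 18 were tested, and with each DILP 1 rose and 1 fell, a share near the 10.9% of all genes tested that were called with DILP2 and the 13.1% with DILP5. Cln7, a lysosomal membrane transporter gene, rose by 0.31 with DILP2 and 0.30 with DILP5 on the log2 scale (adjusted p = 0.00624 and 0.00571). Ppt2, a lysosomal thioesterase gene, fell by 0.53 with DILP2 and by 0.43 with DILP5 (adjusted p = 0.0221 and 0.0420). Of the 7 genes of the Rag GTPases and their lysosomal Lamtor scaffold, none passed with either DILP. The mitochondrial F-type ATP synthase, a related rotary enzyme that makes ATP, had 14 of 17 listed genes tested and none called. Its median log2 fold change was 0.06 with DILP2 and 0.08 with DILP5, beside 0.07 and 0.10 for the V-ATPase genes.

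Some counts could include reads of a neighbouring gene on the opposite strand, since the strand setting of the counting is not given in the sources used here. In the BDGP6 annotation, Vha44 shares 148 exonic bases with Hmgs (3.68% of its exonic length) and Vha100-1 shares 11 bases with Alg13. Among the low genes, Vha100-4 shares 47 bases with cona and VhaPPA1-2 shares 12 bases with CG3817, and Vha16-2 and Vha100-5 overlap antisense RNA genes. Vha36-1, Vha14-1, VhaM8.9 and Vha16-1 share no exonic base with another gene in that annotation.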

How the data were processed

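Reads were single-end and were aligned to the dm3 genome by the authors (Tophat, Bowtie). The deposited values are raw counts per gene made with easyRNASeq, not normalized. Versions, annotation release, strand setting and treatment of reads with several matches are not given in the sources used here. The 32 genes and the other gene lists were chosen with earlier results of these data known.

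Counts of the 9 libraries were fitted in a single model with edgeR 4.0.16 (R 4.3.3, limma 3.58.1): edgeR's default filter on low counts by group (8981 genes), TMM scaling, no replicate block, quasi-likelihood test, Benjamini-Hochberg adjustment over all genes tested and a threshold of 0.05. Standard errors and 95% intervals come from this test. All Vha genes are described. Of the lysosomal, TORC1 scaffold and ATP synthase lists only called genes are named. The assembly and regulation genes and the blood cell markers are named in full, and of the other lineage markers only elav. DESeq2 1.42.0 served as an alternative, beside other scalings, filters, fits and omissions of a library. Exonic lengths are from BDGP6 (13389 identifiers matched, and 311 more by CG number), so no coordinates are given. The test was checked on simulated data. Figures were drawn with matplotlib 3.10.9.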

Additional observations from a re-analysis of the deposited data

How the results depend on the processing

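The number of V-ATPase genes called was small and moved with the settings. With DILP2 (1 gene) it was 2 with DESeq2, 0 with library size only, 2 with Vha68-1 and Vha68-2 summed, and from 0 to 1 when a library was left out. With DILP5 (2 genes) it was 1 with library size only, 1 without the filter, 1 with the length trend removed, and from 0 to 2 when a library was left out. Genes called overall ranged from 487 to 1007 with DILP2 and from 622 to 1270 with DILP5 when a library was left out. With library size only, 307 genes rose and 778 fell with DILP2 (479 and 502 with TMM), and 366 rose and 852 fell with DILP5 (564 and 609 with TMM). The median log2 fold change of the tested V-ATPase genes stayed positive in every alternative, from 0.04 to 0.08 with DILP2 and from 0.06 to 0.12 with DILP5. The number expressed in vehicle cells was 23 at 0.1 CPM or more and 17 at 10 CPM or more.

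With the replicate letters as a block, the V-ATPase genes called numbered 2 with DILP2 (VhaM8.9 added) and 4 with DILP5 (Vha55 and VhaAC39-1 added), among 1781 genes called in all with DILP2 and 2068 with DILP5. Vha68-2 was also called with DILP5 under the block (adjusted p = 0.0357). Libraries of the same letter correlated from -0.035 to 0.348 in their deviations from the group means (6 of 9 over 0.1), against -0.291 to 0.189 for different letters (3 of 18 over 0.1). The pairs of letter A (0.142 to 0.163) and of letter C (0.286 to 0.348) were all over 0.1 and those of letter B were not, and not every library correlated best with its own letter, so the letters were not taken to pair the samples.

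Signs changed only for log2 fold changes that passed no test. VhaAC45 with DILP2 was 0.0019 with DESeq2, 0.0018 with DESeq2's size factors, 5e-04 with at least 10 counts in every library, 0.0015 on the 6 libraries alone, 0.0069 with the length trend removed and from -0.0131 to 0.019 with a library left out. Vha16-1 with DILP2 was -0.0335 with library size only and from -0.0068 to 0.0182 with a library left out. Vha16-1 with DILP5 was 0.0015 without the filter, 0.0223 with the length trend removed and from -0.0296 to 0.0141 with a library left out. Vha14-1 with DILP2 was -0.0043 with the length trend removed, and Vha26 with DILP5 was -0.0167 with library size only and from -0.0103 to 0.0426 with a library left out. With a library left out, VhaM9.7-c with DILP2 ran from -0.1158 to 0.0594, VhaM9.7-b with DILP2 from -0.0033 to 0.0714, and Vha100-2 with DILP5 from -0.0077 to 0.0915. The causes were not tested.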
